A study of Homo sapiens with 8 samples.

Results

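The genes described are 10 chemokines, namely CCL3, CCL3L3, CCL5, CCL20, CXCL1, CXCL2, CXCL3, IL8 (the array's name for CXCL8), CXCL10 and CXCL11, out of 27274 genes named on the array. They were selected on their measured response to HOXB7 siRNA in these arrays, and every non-control probe carrying one of these names was taken, which gave 14 of 34127 gene probes. CXCL1, CXCL2, CXCL10 and CCL3L3 had 2 probes each and the other genes had 1. Pancreatic ductal adenocarcinoma cells were hybridised to one-color Agilent arrays, with 2 arrays in each of 4 groups. The groups were MIA PaCa-2 cells, a line from a primary pancreatic carcinoma, and Capan-1 cells, a line from a hepatic metastasis, each as parental cells and as cells harvested 48 hours after transfection with 10 nM siRNA against the homeobox gene HOXB7. The parental cells received no scrambled siRNA on these arrays, so HOXB7 siRNA and transfection itself cannot be told apart. Each line was grown in its own medium and hybridised on its own slide, with siRNA arrays at positions 1 and 2 and parental arrays at positions 3 and 4, so that slide and line, and position and treatment, cannot be told apart either. The paper describes plating in RPMI medium the day before transfection, whereas Capan-1 cells were otherwise grown in IMDM. Medium may therefore also differ between the siRNA and parental arrays of Capan-1, which was not tested. Nothing in the labels states that replicates came from separate cultures, so p-values measure only the spread between these arrays, which may be technical.

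Chemokines are small secreted proteins that bind G protein-coupled receptors on leukocytes and direct their migration. CXCL1, CXCL2, CXCL3 and CXCL8 act on neutrophils through CXCR2 (and CXCL8 also through CXCR1), CCL20 acts through CCR6, CCL3, CCL3L3 and CCL5 act on monocytes and T cells, and CXCL10 and CXCL11 are interferon-inducible ligands of CXCR3. Epithelial and tumor cells transcribe many of them when NF-kB, AP-1 or interferon signaling is active.

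RefSeq promoter windows of 300 bases (GRCh38.p14, 250 before and 50 after the gene start) were found for 9 of the 10 genes, CCL5 being the exception. The 250 bases before the start are shown for 4 genes, because CXCL10 and CCL3 had the largest siRNA differences in Capan-1, CXCL1 had almost none there, and IL8 had the largest one in MIA PaCa-2. Each run is 5′ to 3′ in the direction of the gene, ending at the base before the start. Capitals mark matches on either strand to the NF-kB consensus, to the interferon-stimulated response element TTTCNNTTTC, to the AP-1 motif TGANTCA or to TATAAA.
CXCL10 (chr4:76023498-76023747, minus strand): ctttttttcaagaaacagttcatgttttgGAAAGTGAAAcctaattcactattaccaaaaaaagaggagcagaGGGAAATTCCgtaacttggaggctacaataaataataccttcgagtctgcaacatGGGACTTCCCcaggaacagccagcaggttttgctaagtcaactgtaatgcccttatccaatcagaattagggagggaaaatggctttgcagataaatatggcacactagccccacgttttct
CCL3 (chr17:36090144-36090393, minus strand): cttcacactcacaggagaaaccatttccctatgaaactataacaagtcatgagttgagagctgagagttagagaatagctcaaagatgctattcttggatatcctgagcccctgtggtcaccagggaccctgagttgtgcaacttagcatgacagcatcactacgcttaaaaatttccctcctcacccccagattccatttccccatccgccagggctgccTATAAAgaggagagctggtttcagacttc
CXCL1 (chr4:73869143-73869392, plus strand): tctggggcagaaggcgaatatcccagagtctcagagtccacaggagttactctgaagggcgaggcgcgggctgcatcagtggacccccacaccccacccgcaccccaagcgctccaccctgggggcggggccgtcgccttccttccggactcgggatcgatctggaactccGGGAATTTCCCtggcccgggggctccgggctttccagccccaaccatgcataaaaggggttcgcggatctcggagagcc
IL8 (chr4:73740319-73740568, plus strand): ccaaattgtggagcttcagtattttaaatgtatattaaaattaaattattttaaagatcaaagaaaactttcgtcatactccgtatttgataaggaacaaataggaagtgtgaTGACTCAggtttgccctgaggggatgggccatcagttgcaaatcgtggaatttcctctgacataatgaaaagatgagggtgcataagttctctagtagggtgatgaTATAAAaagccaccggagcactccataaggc
The NF-kB consensus was found in 6 of the 9 windows, namely those of CCL20, CXCL1, CXCL2, CXCL3, CXCL10 and CXCL11, against 11.3% of 35116 windows in the table. In CXCL1, CXCL2 and CXCL3 it began 79, 78 and 79 bases before the start, with a match on each strand shifted by 1 base. CXCL10 held it 177 and 122 bases before the start. CXCL10 was also the only member with an exact match to the interferon element, 221 bases before the start on the opposite strand. That motif was in 3.57% of all windows. AP-1 matched in IL8 and CXCL11 (7.71% of all windows) and TATAAA in 5 members (11.5%). The windows of CCL3 and CCL3L3 held TATAAA alone, and were identical in 90.8% of 306 aligned columns. The windows of CXCL1, CXCL2 and CXCL3 were identical in 71.9% to 82.5% of aligned columns, so their matches are not independent. The NF-kB pattern had to begin with GGG, so the stretch ggaatttcc in the IL8 run was not counted. A window without a match may therefore hold a looser form of a motif. These matches describe letters in the windows and were not tested as binding sites.

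A pair of probe sequences is shown because close paralogs limit what single probes can tell apart. Capitals mark the 5 positions that differ in the 37 bases shared by both probes.
CXCL2 probe A_24_P257416: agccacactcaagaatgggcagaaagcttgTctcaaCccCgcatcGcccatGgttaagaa
CXCL1 probe A_33_P3330264: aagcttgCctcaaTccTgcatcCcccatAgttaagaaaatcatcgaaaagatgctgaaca
The CXCL2 probe also carries an accession of CXCL3 in the deposited annotation, and both CCL3L3 probes carry accessions of CCL3L1. Signals of CXCL1 to CXCL3 and of CCL3, CCL3L1 and CCL3L3 could therefore be shared between paralogs, and levels were compared between groups for the same probe, never between probes. In the coordinates of the deposited annotation (hg18), the CCL3 probe lies at chr17:31439718-31439777, the CCL5 probe at chr17:31223445-31223504, the IL8 probe at chr4:74828129-74828188 and the CXCL11 probe at chr4:77174639-77174698.

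Levels are log2 intensities relative to the 75th percentile of the gene probes on the same array, so that 0 is that percentile. For a fold given as "at least", arrays of the dim group were raised to the lowest level of any probe well above background there. Some probes above that level were still not well above background. A CXCR3 probe at -5.40 on MIA PaCa-2 parental replicate 2 is an example, where the lowest level was -5.86. These folds are therefore not strict minima. Between 67.5% and 73.0% of the probes were well above background on an array, and no member probe was saturated or missing. Duplicate arrays correlated with r between 0.995 and 0.997 across the 20291 probes well above background on all 8 arrays, which leaves out dim probes. HOXB7, the targeted gene, was at -4.82 and -4.09 on the parental MIA PaCa-2 arrays and not well above background on either siRNA array. It was at least 2.85-fold lower (limma adjusted p = 0.0173, tested through the parental arrays alone, which fixed its direction). In Capan-1 it was at -2.48 and -2.34 on the parental arrays and at -5.26 and -4.80 on the siRNA arrays, a log2 difference of -2.62 or 6.13-fold that did not pass the threshold over all probes (limma adjusted p = 0.121). By quantitative PCR and western blot, the paper reported lower HOXB7 mRNA and protein with siRNA in both lines. All 8 epithelial markers were well above background in Capan-1, whereas CDH1, CEACAM6 and EPCAM were not above background on any MIA PaCa-2 array. The summed level of the 13 leukocyte markers on the array lay between 2.07 and 2.23 times the 75th percentile on Capan-1 arrays and between 5.30 and 5.89 times on MIA PaCa-2 arrays, and that of the 6 fibroblast markers between 0.125 and 0.163 times and between 14.0 and 15.7 times. In MIA PaCa-2, COL1A2 made up nearly all of the fibroblast sum and CD14 most of the leukocyte sum on the parental arrays, whereas COL1A1 was lower than in Capan-1, and of 11 leukocyte markers tested between the parental lines 5 were higher and 5 lower. With siRNA, no marker of any list was past the limma threshold in Capan-1, where only 1 of 18892 genes tested was. In MIA PaCa-2 the epithelial marker MUC1 was lower (log2 difference -0.92) and the macrophage marker CD68 higher (0.70). There 1.12% of 19173 genes tested were lower and 1.17% higher. The part of these markers in the chemokine values was not tested. In bulk RNA, a smaller share of expressing cells and less RNA per cell cannot be told apart.

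**Figure D1:**
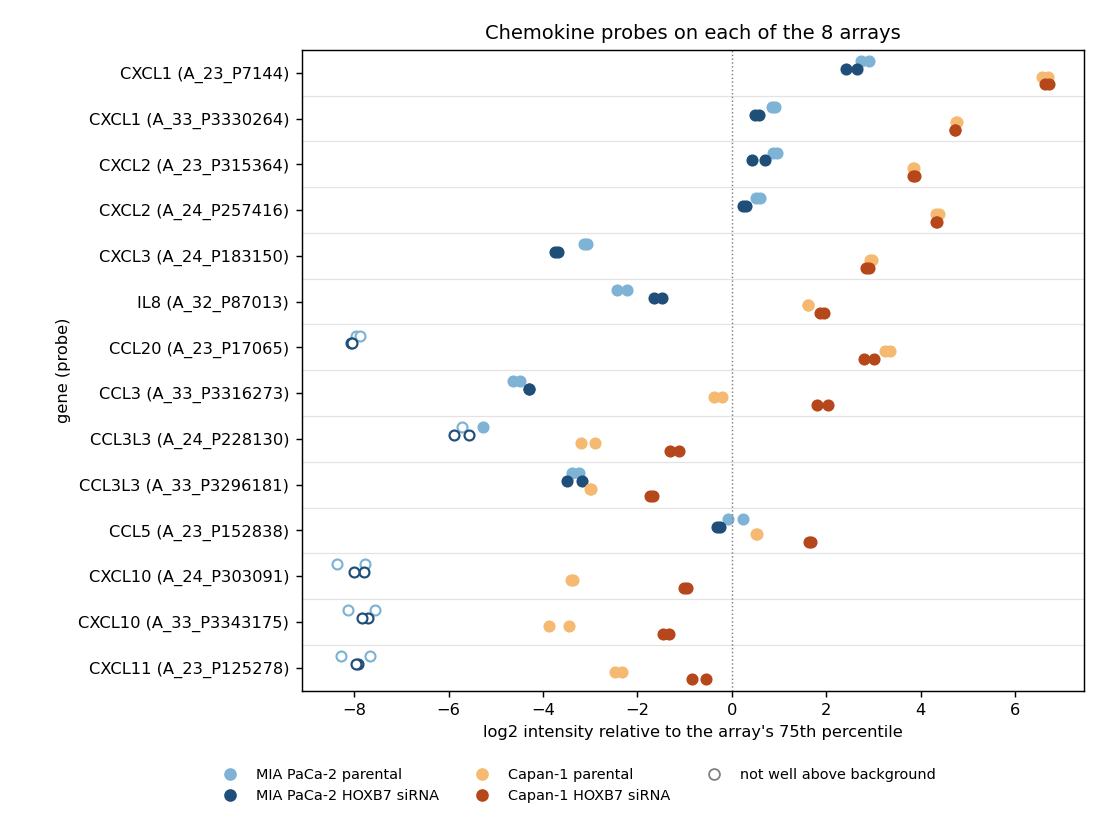
Level of each of the 14 chemokine probes on the 8 arrays, as log2 intensity relative to the 75th percentile of the array (x axis), with 1 row per probe and 1 point per array in the color of its group. Open points were not well above background. The Capan-1 points lie to the right for all probes except that for CCL3L3 A_33_P3296181 the parental points of both lines nearly meet, and the dark Capan-1 siRNA points of CCL3, CCL3L3, CCL5, CXCL10 and CXCL11 stand apart from the parental ones.

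The parental lines were compared to ask how chemokine transcripts differ between a primary tumor line and a metastasis-derived line before any treatment. These parental arrays were also the baseline of the siRNA contrasts on which the genes were selected, so the comparison is not independent of the selection. Of the 7 genes with a probe well above background on all 8 arrays, 6 were lower in MIA PaCa-2 than in Capan-1 (CXCL1, CXCL2, CXCL3, IL8, CCL3 and CCL5, limma adjusted p under 0.05), where 31.7% of 20123 genes tested were lower and 40.1% higher. CCL3L3 passed with its other probe only. CCL20, CXCL10 and CXCL11 were well above background on all 4 Capan-1 arrays and on none of the 4 MIA PaCa-2 arrays. They entered the test through Capan-1 alone, which fixed their direction. Their p-values rest on MIA PaCa-2 values at background and are not given. With these genes and CCL3L3 the count was 10 of 10.

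Among the neutrophil attractants, CXCL1 (probe A_23_P7144) was at 2.74 and 2.91 on the parental MIA PaCa-2 arrays and at 6.70 and 6.57 on the parental Capan-1 arrays. It stood above the 75th percentile of the array in both lines. Its log2 difference was -3.81 (standard error 0.12, limma adjusted p = 2.11e-06), and its second probe gave -3.88. CXCL2 was at 0.95 and 0.88 against 3.86 and 3.85 with probe A_23_P315364. Its probes gave log2 differences of -2.94 and -3.81, the larger one from the probe that overlaps the CXCL1 probe shown above. CXCL3 was at -3.12 and -3.07 against 2.93 and 2.96, a log2 difference of -6.04 (standard error 0.08, limma adjusted p = 2.10e-07) or 66.0-fold. IL8, the prototype neutrophil chemokine, was at -2.44 and -2.23 against 1.62 and 1.61, a log2 difference of -3.95 (standard error 0.11, limma adjusted p = 1.27e-06). For these 4 genes no MIA PaCa-2 array reached a Capan-1 array.

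CCL20, which attracts CCR6-bearing lymphocytes and dendritic cells, differed by more than any of the 7 genes measured in both lines. It was at 3.36 and 3.24 on the parental Capan-1 arrays and not well above background on either parental MIA PaCa-2 array, at least 654-fold lower. The interferon-inducible CXCR3 ligands were likewise not well above background in MIA PaCa-2. CXCL10 was at -3.42 and -3.36 in parental Capan-1 with probe A_24_P303091, and lower in MIA PaCa-2 at least 6.34-fold and at least 5.26-fold with its second probe. CXCL11 was at -2.48 and -2.32 in parental Capan-1, and lower in MIA PaCa-2 at least 12.6-fold.

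Among the attractants of monocytes and T cells, CCL3 was at -4.64 and -4.50 on the parental MIA PaCa-2 arrays and at -0.21 and -0.37 on the parental Capan-1 arrays. Its log2 difference was -4.28 (standard error 0.12, limma adjusted p = 1.37e-06), or 19.4-fold. CCL5 was close in the 2 lines, at 0.23 and -0.08 against 0.54 and 0.52. It had the smallest log2 difference among the 13 probes past the threshold, -0.45 (95% interval -0.74 to -0.17, limma adjusted p = 0.0142), which no longer passed when either parental Capan-1 array was left out or without scaling between arrays. The CCL3L3 probes disagreed, with a log2 difference of -2.44 (limma adjusted p = 8.75e-05) for A_24_P228130, which was well above background on 1 of 2 parental MIA PaCa-2 arrays, and of -0.31 (95% interval -0.62 to -0.00086, limma adjusted p = 0.0682) for A_33_P3296181. With the normexp background correction the log2 difference of CCL3 was -1.98 in place of -4.28, that of CCL20 -5.96, that of CXCL11 -0.96 and that of CXCL10 with probe A_24_P303091 -0.62. That correction adds an offset of 50 to the intensities, which compresses the values of dim probes.

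**Figure D2:**
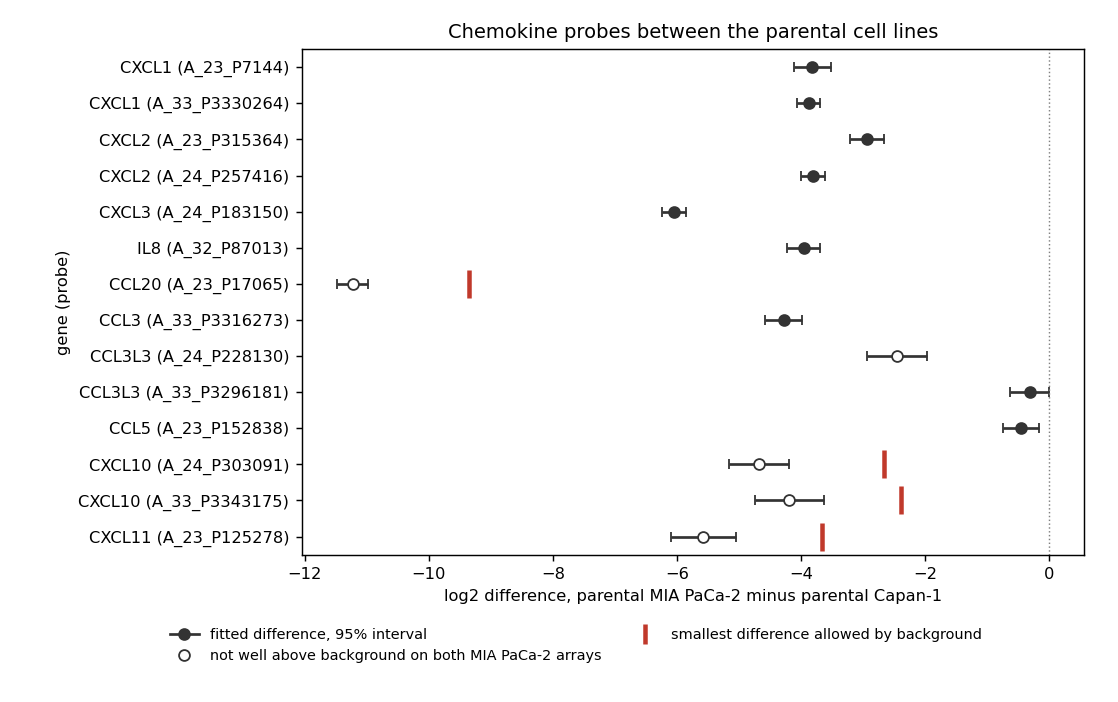
Log2 difference between the parental lines, MIA PaCa-2 minus Capan-1 (x axis), for the 14 chemokine probes, with points for the fitted difference and bars for its 95% interval over 2 arrays a group. Open points were not well above background on both MIA PaCa-2 arrays. Red ticks give the difference with MIA PaCa-2 raised to the lowest level of any probe well above background, which is not a strict minimum. All 14 points lie below 0, from -0.31 for CCL3L3 to -11.23 for CCL20, where the tick stands at 654-fold.

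HOXB7 siRNA was compared with parental cells in each line. As the genes were selected on this contrast, its values are given as a description without p-values. In Capan-1 CCL3, CCL3L3 and CCL5 and the CXCR3 ligands were higher on the siRNA arrays, whereas the neutrophil attractants and CCL20 lay close to their parental levels. In MIA PaCa-2 every difference that could be measured was below 1 in size on the log2 scale, and IL8 alone was higher by more than 0.5.

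In Capan-1, CCL3 was at 1.80 and 2.05 on the siRNA arrays, against parental values of -0.21 and -0.37. Both siRNA arrays stood above the 75th percentile of the array and both parental ones below it. The log2 difference was 2.21 (95% interval 1.92 to 2.51), or 4.63-fold. CCL3L3, the near-identical paralog, was at -1.32 and -1.12 against -2.91 and -3.20 with probe A_24_P228130, and at -1.72 and -1.67 against -3.01 and -2.99 with probe A_33_P3296181. The differences were 1.83 (95% interval 1.35 to 2.32) and 1.30 (95% interval 0.99 to 1.62). With the normexp background correction they were 0.99 and 0.76, and that of CCL3 was 1.95. Since the probes of CCL3 and CCL3L3 may share transcripts, they do not count as independent of each other. CCL5, which recruits T cells and monocytes, was at 1.68 and 1.63 against 0.54 and 0.52, a log2 difference of 1.13 (95% interval 0.84 to 1.41) or 2.18-fold.

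CXCL10 was at -1.01 and -0.96 on the Capan-1 siRNA arrays against -3.42 and -3.36 with probe A_24_P303091, and at -1.47 and -1.33 against -3.87 and -3.44 with probe A_33_P3343175. The differences of 2.40 (95% interval 1.91 to 2.89) and 2.26 (95% interval 1.70 to 2.82) were the largest and second largest of the 14 probes, and the groups did not overlap. With the normexp background correction they were 1.30 and 1.11, both below the 1.95 of CCL3, so this order depended on the correction. CXCL11 was at -0.85 and -0.55 against -2.48 and -2.32, a log2 difference of 1.70 (95% interval 1.17 to 2.22) or 3.25-fold. The normexp correction gave 1.10 for CXCL11. The third CXCR3 ligand, CXCL9, is not among the 10 genes. It was well above background on both Capan-1 siRNA arrays, at -3.42 and -3.22, and on neither parental array, at least 6.56-fold higher with siRNA, and on no MIA PaCa-2 array. CXCL9 entered the comparison through the siRNA arrays alone, which fixed its direction, and was named after its value was seen.

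The remaining chemokines showed small differences in Capan-1. IL8 was at 1.95 and 1.87 on the siRNA arrays against 1.62 and 1.61, a log2 difference of 0.29 (95% interval 0.02 to 0.56). CCL20 was the only gene lower by more than 0.1 with scaling to the 75th percentile, at 3.01 and 2.80 against 3.36 and 3.24, a log2 difference of -0.39 (95% interval -0.64 to -0.15). CXCL3 was at 2.85 and 2.91 against 2.93 and 2.96, a log2 difference of -0.07 (95% interval -0.27 to 0.13). The 4 probes of CXCL1 and CXCL2 gave log2 differences between -0.03 and 0.05, and their intervals reached at most from -0.27 to 0.34. These small differences depended on the scaling. With scaling to spike-in probes, which moved the median difference of all probes to -0.28, the log2 differences were -0.23 and -0.31 for CXCL1, -0.27 and -0.30 for CXCL2, -0.35 for CXCL3, -0.67 for CCL20 and 0.01 for IL8.

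In MIA PaCa-2, 9 probes of 7 genes could be compared, CCL20, CXCL10 and CXCL11 being not well above background in either group. IL8 was at -1.48 and -1.65 on the siRNA arrays against -2.44 and -2.23, a log2 difference of 0.77 (95% interval 0.51 to 1.04) or 1.71-fold. CXCL3 went the other way, at -3.76 and -3.68 against -3.12 and -3.07, a log2 difference of -0.62 (95% interval -0.82 to -0.43), although both genes encode ligands of CXCR2. With the normexp background correction the CXCL3 difference was -0.04. CXCL1 was at 2.66 and 2.42 against 2.74 and 2.91, and its probes gave log2 differences of -0.28 and -0.35. CXCL2 was at 0.69 and 0.42 against 0.95 and 0.88, and its probes gave -0.36 and -0.28. CCL5 was at -0.26 and -0.32 against 0.23 and -0.08, a log2 difference of -0.36 (95% interval -0.65 to -0.08), the opposite sign to that in Capan-1. CCL3 was at -4.30 and -4.29 against -4.64 and -4.50, a log2 difference of 0.27 (95% interval -0.02 to 0.56). CCL3L3 was level with probe A_33_P3296181, at -3.17 and -3.50 against -3.25 and -3.38.

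Counted over members, 1 of 10 genes in Capan-1 (CCL3, higher) and 2 of 7 in MIA PaCa-2 (IL8 higher, CXCL3 lower) were past the limma threshold. Over all genes tested, 0% were lower and 0.00529% higher of 18892 in Capan-1, and 1.12% lower and 1.17% higher of 19173 in MIA PaCa-2. The siRNA pair did not overlap the parental pair in Capan-1 for 8 probes of 14 that were higher and 3 that were lower, against 27.1% and 27.1% of all probes tested. The same held in MIA PaCa-2 for 2 probes of 9 that were higher and 6 that were lower, against 28% and 23.3%. By the interval that holds 99% of the differences between both parental arrays at like intensity, 7 probes of 5 genes were higher in Capan-1 (CCL3, CCL3L3, CCL5, CXCL10 and CXCL11) where 1.1% of all probes were, although CCL3, CCL5 and CXCL11 have 1 probe each and the study asked for at least 2 per gene, and none was higher in MIA PaCa-2, where 0.254% were. The limits differed between the lines, so these counts are not on a like scale. For CCL5 they were 0.74 and 0.71 in MIA PaCa-2 against 0.30 and 0.30 in Capan-1, and for CCL3 2.01 and 2.15 against 0.41 and 0.41. For CXCL10 with probe A_24_P303091 they were mixed, at 0.71 and 0.98 against 0.87 and 0.74. For the difference of both siRNA effects, 0 of the 10 genes were past the threshold, against 0.00486% of 20575 genes in either direction. The CCL3 effect in MIA PaCa-2 minus that in Capan-1 was -1.94 on the log2 scale (95% interval -2.36 to -1.52). Nothing is read from these counts about the 10 genes, since they were selected on the same arrays. Without scaling between arrays the IL8 and CXCL3 calls in MIA PaCa-2 were lost, and the Capan-1 count ranged from 0 to 5 genes over the alternatives tried.

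**Figure D3:**
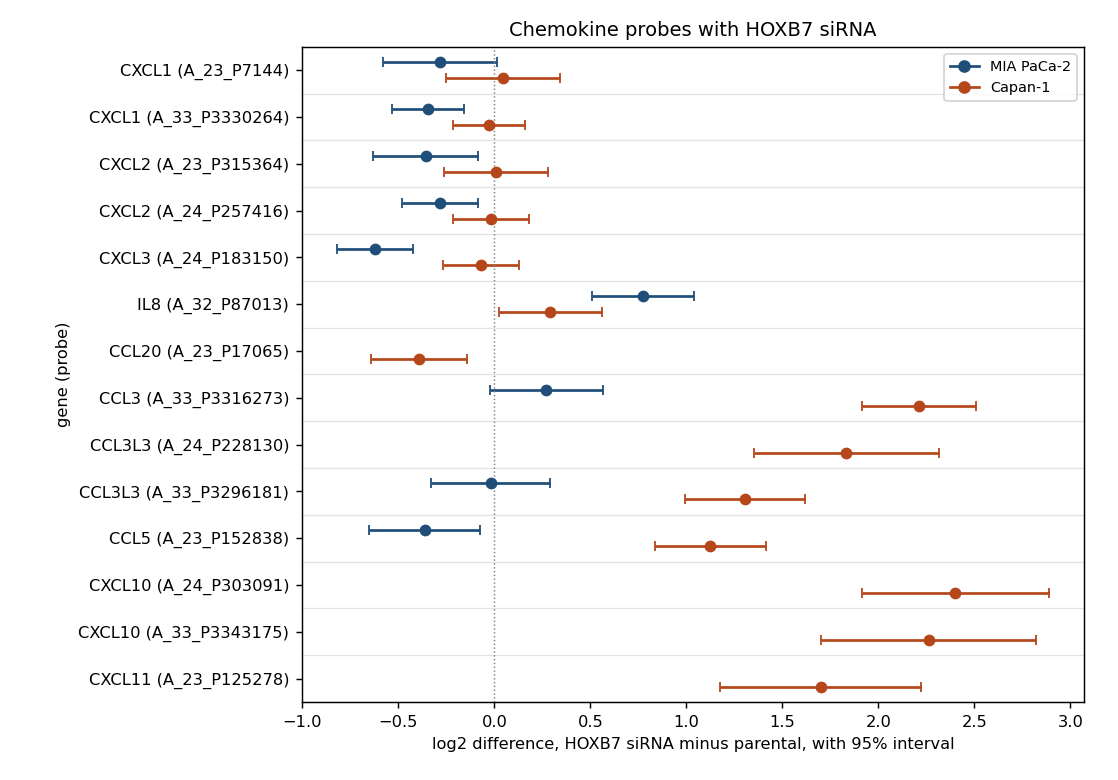
Log2 difference between HOXB7 siRNA and parental arrays (x axis) for the 14 chemokine probes in MIA PaCa-2 (blue) and Capan-1 (orange), with bars for the 95% interval over 2 arrays a group. Probes without a blue point were not well above background on both arrays of any MIA PaCa-2 group. In Capan-1 the 7 probes of CCL3, CCL3L3, CCL5, CXCL10 and CXCL11 lie between 1.13 and 2.40 and the other 7 between -0.39 and 0.29.

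The chemokines outside the 10 genes were examined from a list of 37 other ligands, of which 35 were on the array. Between the parental lines, 24 could be tested, of which 16 had less and 4 more signal in MIA PaCa-2 (limma adjusted p under 0.05). Over all 20123 genes tested, 31.7% were lower and 40.1% higher. Some ligands entered through 1 line alone, which fixed their direction. Examples are PPBP, CCL7, CCL26 and CCL28 through Capan-1 and CCL27 through MIA PaCa-2. CCL2, which recruits monocytes, was at 6.23 and 6.28 on the parental Capan-1 arrays and at -5.66 and -5.59 on the parental MIA PaCa-2 arrays, of which 1 of 2 measured it well above background (limma adjusted p = 1.49e-07). The mucosal chemokine CCL28 was not well above background in parental MIA PaCa-2, at least 215-fold lower there. CXCL6 and CXCL5, further CXCR2 ligands encoded beside CXCL1 and IL8, had log2 differences of -5.72 and -4.70. With HOXB7 siRNA, 0 of 25 other ligands in Capan-1 and 0 of 16 in MIA PaCa-2 were past the limma threshold. Over all genes, 1 of 18892 passed in Capan-1, and 1.12% were lower and 1.17% higher of 19173 in MIA PaCa-2. Counts of 0 are near those shares, so nothing is read from them about the ligands. The median log2 differences of the other ligands were -0.03 and 0.11. CCL4, a CC chemokine closely related to CCL3, was at -2.99 and -2.90 on the Capan-1 siRNA arrays against -3.72 and -3.84, a log2 difference of 0.84 (standard error 0.12) with probe A_23_P207564 and of 0.84 with its second probe. Ligands with lower values on the Capan-1 siRNA arrays included CXCL14, at -4.68 and -4.11 against -3.44 and -3.76, CCL2, at 5.74 and 5.72 against 6.23 and 6.28, CCL17, at -2.98 and -2.98 against -2.49 and -2.47, and CCL7, with a log2 difference of -0.51. CCL16 was well above background on both MIA PaCa-2 siRNA arrays, at -3.44 and -5.43, and on neither parental array with probe A_23_P207582. It entered the comparison through the siRNA arrays alone, which fixed its direction. The difference was at least 3.07-fold with these far apart arrays, while its second probe gave a log2 difference of 0.08.

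The receptors were described in the same way. Of 23 chemokine receptor genes, 12 could be tested between the parental lines, 5 higher and 5 lower in MIA PaCa-2. Over all 20123 genes tested, 40.1% were higher and 31.7% lower. CXCR4, the CXCL12 receptor, was not well above background in parental Capan-1 and at least 10.4-fold higher in MIA PaCa-2. The atypical receptor CCRL2 was not well above background in parental MIA PaCa-2 and at least 92.5-fold higher in Capan-1. CXCR4 and CCRL2 each entered the test through the line that measured them, which fixed their direction. No receptor was past the threshold with HOXB7 siRNA, of 10 tested in Capan-1 and 9 in MIA PaCa-2. Over all genes, 1 of 18892 passed in Capan-1, and 1.12% were lower and 1.17% higher of 19173 in MIA PaCa-2. Nothing is read from these counts about the receptors. The Capan-1 differences lay between -0.25 and 0.26 on the log2 scale.

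Of 32 inducers and regulators of chemokine genes, 31 could be tested between the parental lines, 23 lower and 4 higher in MIA PaCa-2. Over all 20123 genes tested, 31.7% were lower and 40.1% higher. IL1A and IL17C entered through Capan-1 alone, which fixed their direction. The interferon regulatory factor IRF7 had a log2 difference of -6.62, the cytokine IL6 -6.35 and the NF-kB feedback inhibitor TNFAIP3 -5.87, all with limma adjusted p of at most 1.69e-06. IL1A was not well above background in parental MIA PaCa-2, at least 27.7-fold lower there, while IL1B and TNF had log2 differences of -3.02 and -2.98. The median log2 difference of this list was -0.86. With HOXB7 siRNA, 0 of 31 were past the limma threshold in Capan-1 and 0 of 28 in MIA PaCa-2. Over all genes, 1 of 18892 passed in Capan-1, and 1.12% were lower and 1.17% higher of 19173 in MIA PaCa-2. Nothing is read from these counts about the regulators. The Capan-1 differences with the largest positive values were 0.98 for IL29, an interferon lambda, 0.70 for IRF9, a subunit of the interferon-activated complex that binds the interferon element, and 0.58 for IL1A. IFNB1, interferon beta, was not well above background on the Capan-1 siRNA arrays and was at -4.90 and -5.34 on the parental ones. It entered through the parental arrays alone, which fixed its direction.

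**Figure D4:**
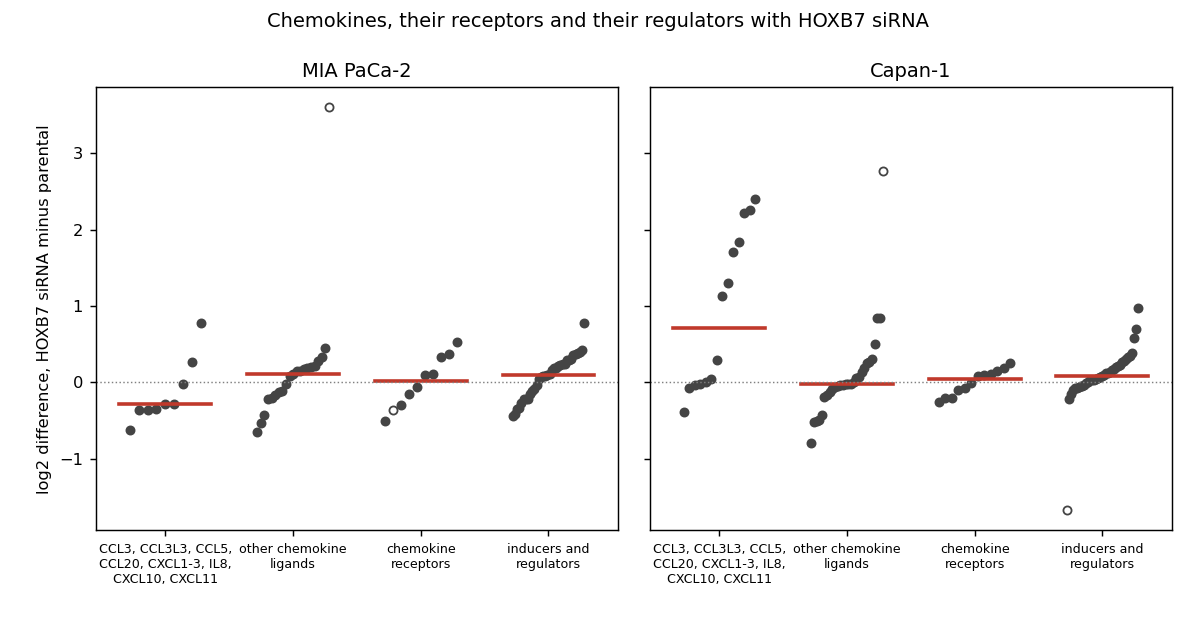
Log2 difference between HOXB7 siRNA and parental arrays (y axis) for each tested probe of the 10 chemokines, of other chemokine ligands, of chemokine receptors and of inducers and regulators, in MIA PaCa-2 (left) and Capan-1 (right), with red lines for the medians. Open points were not well above background in one of the groups. The median of the 10 chemokines was 0.71 for Capan-1 and -0.28 for MIA PaCa-2, and the medians of the other lists lay between -0.03 and 0.11. The 10 chemokines were selected on these contrasts, so nothing is read from their medians against those of the other lists. The Capan-1 median falls in a gap between probes at 0.29 (IL8) and 1.13 (CCL5).

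The genes with the most similar levels across the 8 arrays were found for 3 chemokines by Pearson correlation over 25434 probes, as a description in which both lines and their treatments are shared by all points. For CCL3 they were IL7R (r = 0.997), JKAMP (r = 0.996) and YRDC (r = 0.995), and for CXCL10 IL7R (r = 0.998), JKAMP (r = 0.997) and MSMB (r = 0.996). IL7R, the interleukin 7 receptor, was at -4.06 and -4.06 on the Capan-1 siRNA arrays, at -5.10 and -5.31 on the parental ones and not well above background in MIA PaCa-2. For IL8 they were NFE2L3, GALNT7 and FAM59A, with r between 0.9993 and 0.9996. NFE2L3, a transcription factor, followed the order of IL8, at 1.61 and 1.44 in MIA PaCa-2 siRNA, 0.97 and 1.03 in MIA PaCa-2 parental, 3.75 and 3.70 in Capan-1 siRNA and 3.53 and 3.47 in Capan-1 parental.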

How the data were processed

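Total RNA was labeled with Cy3 and hybridised by the authors to one-color Agilent arrays, and Feature Extraction (9.5.3 per the labels) subtracted the background and gave a processed intensity per spot. The authors deposited these intensities and a table of the same values as log2. Spots with outlier flags were left out, log2 intensities were averaged per probe, and the array's 75th percentile was subtracted. Tests took in probes that both arrays of either group in a comparison measured well above background, so a probe at background in one group entered through the other, which fixed its direction. One limma fit (3.58.1, R 4.3.3) over all 8 arrays gave differences and Benjamini-Hochberg adjusted p per comparison, with a threshold of 0.05, and was tested on simulated data. With 2 arrays against 2, an exact permutation test cannot give p under 0.333, and the number of arrays limits the precision. The study's 99% interval was rebuilt over windows of 1001 probes, without its further criteria of at least 2 probes per gene and the same direction in all of them. Alternatives changed the background correction, scaling, filter, spread model or arrays fitted. Named genes were all members, HOXB7, the list genes past the threshold with the largest differences (at most 6 per list and comparison), and the 3 genes most correlated with CCL3, IL8 and CXCL10. CXCL9, CCL4, CXCL14, CCL2, CCL17, CCL7, CCL16, IL29, IRF9, IFNB1 and IL1A with siRNA were named after their values were seen. The 10 members and the gene lists were chosen with earlier results of these data known. Gene names are those of the array. Promoters were read from RefSeq windows and aligned with Biopython 1.88.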

Additional observations from a re-analysis of the deposited data

How the results depend on the processing

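In the parental comparison all 10 chemokines were past the threshold, of which CCL20, CXCL10 and CXCL11 entered through Capan-1 alone. The count was 9 to 10 with 1 array left out, CCL5 being lost without Capan-1 parental replicate 1 or 2. With a filter for probes well above background on all 8 arrays the count was 6, since fewer genes were tested. In MIA PaCa-2 siRNA against parental, the count of 2 became 0 without scaling between arrays, with scaling to spike-in probes, without the filter on dim probes, with only the groups compared in the fit and by the 99% interval, and 4 when the spread was fitted with an intensity trend. Leaving out 1 array gave 0 to 2, and 2 only without MIA PaCa-2 siRNA replicate 2. In Capan-1 siRNA against parental, the count of 1 became 5 with normexp and by the 99% interval, 4 with quantile normalization or the intensity trend, 2 without scaling and with spike-in scaling, and 0 without the filter on dim probes and with only the groups compared. Leaving out 1 array gave 0 to 2 again, and 0 without any 1 MIA PaCa-2 array. For the difference of the siRNA effects, the count of 0 became 4 with normexp, 2 with an intensity trend, 1 with quantile normalization and 1 with the filter on all 8 arrays, and 0 to 2 when single arrays were omitted. The cause was not tested. In the main limma fit the numbers of the replicates were not taken as pairs, since deviations of same-numbered arrays correlated with r between -0.09 and 0.185 over the 6 pairs of groups, the highest between MIA PaCa-2 parental and Capan-1 siRNA and all others under 0.1. The 99% interval did compare each siRNA array with the same-numbered parental array, and both had to pass. With the replicate block the counts were 10 for the parental lines, 0 for siRNA in MIA PaCa-2, 0 for siRNA in Capan-1 and 0 for the difference. No called probe changed its sign under any alternative. Scaling to spike-in probes moved the median difference over all probes to -0.28 in Capan-1 and to -0.02 between the parental lines (6328 genes higher and 6485 lower, from 8071 and 6388), and no scaling moved it to -0.16 in Capan-1 and -0.19 in MIA PaCa-2.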
